A study of Mus musculus with 14 samples.

Results

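Neurog2 and 8 other genes of the basic helix-loop-helix (bHLH) family that act in neurons or their progenitors were followed in mouse cortex with and without 1 knockout allele of Dnmt3a, which encodes a DNA methyltransferase. The 9 genes, Neurog2, Neurod1, Neurod2, Neurod6, Bhlhe22, Bhlhe40, Hes1, Hes5 and Tcf4, were taken by symbol from the deposited count table, which lists 34193 symbols. The choice of genes used the genotype comparison of these data, in which the authors' deposited table calls Neurog2 lower in heterozygotes. The genotype values of all 9 are therefore a description and are not offered as independent evidence of a genotype effect.

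Cortex RNA came from 7 mice heterozygous for the Dnmt3a knockout (DNMT3A heterozygous KO in the labels) and from 7 wild-type littermates. All were of the C57BL/6J strain and 8 weeks old, with 4 females and 3 males in each genotype. The labels name no promoter, Cre line or exon for the knockout, and they give each sample a title that starts with a prefix (046, 047, 048, 139, 119 or 141) whose meaning they do not state. Prefixes 046, 047, 048 and 139 are called set A here (8 animals) and prefixes 119 and 141 set B (6 animals). Genotypes are equally represented in each set, and the sets were named after a principal component of these libraries had separated them. Each title names a separate tissue sample, and the labels do not say whether the mice of a genotype came from separate litters.

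The bHLH proteins bind DNA as pairs, mostly at the E-box, a short motif written CANNTG. Proneural activators such as Neurog2, and the Neurod factors that follow it, pair with widely expressed E proteins such as Tcf4 and drive progenitors of the embryonic cortex towards glutamatergic neurons. Hes1 and Hes5 are repressors switched on by Notch signalling, and they hold proneural genes down in progenitors. Dnmt3a methylates cytosines of DNA, among them those followed by G.

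The promoters of 4 members for which a promoter was matched are shown, so that their density of CG dinucleotides can be seen. Cytosines outside CG, which the enzyme can also methylate, are not marked. Each is the 250 bases before the gene start on its own strand, from RefSeq on GRCm38.p6, with every CG in capitals. RefSeq promoters were matched for 5 of the 9 members, Neurod1 being the fifth. None was matched for Bhlhe22, Bhlhe40, Hes1 or Tcf4. The windows are Neurog2 on chr3:127632886-127633135 (plus strand), Neurod2 on chr11:98329646-98329895 (minus strand), Neurod6 on chr6:55681264-55681513 (minus strand) and Hes5 on chr4:154960673-154960922 (plus strand).
Neurog2: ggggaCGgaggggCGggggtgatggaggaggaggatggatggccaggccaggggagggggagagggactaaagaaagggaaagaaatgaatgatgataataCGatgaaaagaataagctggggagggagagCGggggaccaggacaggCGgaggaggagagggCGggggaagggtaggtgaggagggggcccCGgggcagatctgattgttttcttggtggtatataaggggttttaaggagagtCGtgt
Neurod2: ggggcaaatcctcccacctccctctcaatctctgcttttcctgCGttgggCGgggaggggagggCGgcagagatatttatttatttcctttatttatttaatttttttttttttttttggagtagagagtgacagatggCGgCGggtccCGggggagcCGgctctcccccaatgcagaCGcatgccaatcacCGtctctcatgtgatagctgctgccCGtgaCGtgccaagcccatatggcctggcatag
Neurod6: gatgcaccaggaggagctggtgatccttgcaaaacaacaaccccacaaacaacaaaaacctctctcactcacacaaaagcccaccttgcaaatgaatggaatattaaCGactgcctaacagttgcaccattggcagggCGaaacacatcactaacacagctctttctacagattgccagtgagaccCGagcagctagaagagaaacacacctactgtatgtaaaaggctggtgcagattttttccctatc
Hes5: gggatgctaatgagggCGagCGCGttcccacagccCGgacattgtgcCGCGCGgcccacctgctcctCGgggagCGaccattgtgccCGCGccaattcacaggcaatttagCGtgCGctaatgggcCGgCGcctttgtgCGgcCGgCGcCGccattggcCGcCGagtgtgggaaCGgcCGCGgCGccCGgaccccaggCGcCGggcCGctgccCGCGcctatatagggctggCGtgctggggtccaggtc

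The Neurog2 window held 8 CG dinucleotides, where the median of 32851 mouse promoter windows of the same length was 6, and 57% of the windows held fewer. Hes5 had the densest window of the 4, with 32 CG and 95.4% of windows holding fewer. Neurod6 had the sparsest, with 3 CG and 29% of windows holding fewer. Neurod2 lay between them with 11, and the window of Neurod1 held 22. On either strand, the E-box CANNTG occurred 3 times in Neurod2, 2 times in Neurod6, once in Hes5 and 0 times in Neurog2, against 66.2% of all windows with at least 1. The narrower E-box CAGATG, which is contained in CANNTG, occurred once in Neurod2 and is found in 14.4% of windows. GTGGGAA, the motif of the Notch effector Rbpj, occurred 2 times in Hes5 and is found in 5.42% of windows. CACNAG, the N-box of Hes repressors, occurred 3 times in Neurod6 and is found in 36.7% of windows. These matches describe letters only, and no methylation value was used here.

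Library totals spanned 9794201 to 14206585 counts among wild-type animals and 8951835 to 14335406 among heterozygotes. Dnmt3a itself, read as CPM (counts scaled to TMM-normalised library sizes), was 146 ± 14.2 in wild type and 99.0 ± 11.4 in heterozygotes (SD, n = 7 each). Its log2 difference, heterozygous minus wild type, was -0.56 (SE 0.0642, edgeR adjusted p = 5.28e-05). The count covers all annotated exons, and RNA made from the knockout allele can be part of it. The defining marker of cortical excitatory neurons, Slc17a7, was present at 1394 ± 223 CPM in wild type and 1460 ± 184 CPM in heterozygotes (SD, n = 7 each). In bulk tissue, fewer cells of a type and less RNA per cell cannot be told apart, and this holds for every value below.

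Compared per length of exon (RPKM, CPM divided by the exon length in kilobases), the 9 members spanned a wide range over the 14 animals. Bhlhe40, a repressor that responds to activity and the circadian clock, was the most abundant at 33.2 ± 8.82, followed by Neurod6 at 28.8 ± 4.54 and Neurod2 at 25.8 ± 4.49. Tcf4 at 17.6 ± 1.39, Bhlhe22 at 15.3 ± 2.13 and Hes5 at 12.1 ± 2.69 formed a middle group. Neurod1 at 5.10 and Hes1 at 4.25 ± 0.937 were lower, and Neurog2 was lowest at 0.382 ± 0.322 (SD, n = 14 throughout). In this order Bhlhe40 and Neurod6, Neurod6 and Neurod2, and Neurod1 and Hes1 differed by less than the larger SD of each pair. The RPKM of Tcf4 divides by 27.38 kb of annotated exon summed over many isoforms, so it is a low estimate next to the other genes, whose exons sum to between 1.36 and 4.71 kb.

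Neurog2, the proneural factor of embryonic cortical progenitors, was the member with the largest genotype difference. The wild-type animals held 16, 24, 15, 26, 9, 14 and 12 reads (replicates 1 to 7), and the heterozygotes 1, 5, 2, 6, 5, 2 and 2. Every wild-type library thus held more Neurog2 reads than any heterozygous library, 116 in all against 23. The ratio of rates was 4.94, with an exact 95% Poisson interval of 3.14 to 8.10 that covers counting error only. Scaled to depth, Neurog2 stood at 1.40 ± 0.593 CPM in wild type and 0.299 ± 0.216 CPM in heterozygotes (SD, n = 7 each). On this scale 2 animals touch across the gap, wild-type replicate 5 at 0.672 CPM and heterozygous replicate 4 at 0.679 CPM. Scaled to plain library totals, a setting added after the data were seen, they stand at 0.677 and 0.670 CPM and the genotypes do not overlap. They belong to different sets, and within each set the genotypes did not overlap. Among the genes of the fit below, 1.38% were lower without overlap in set A and 11.3% in set B. Over all 14 animals 0.0478% were, on the TMM scale, where Neurog2 is not among them. No such share is given for raw reads or library totals.

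**Figure D1:**
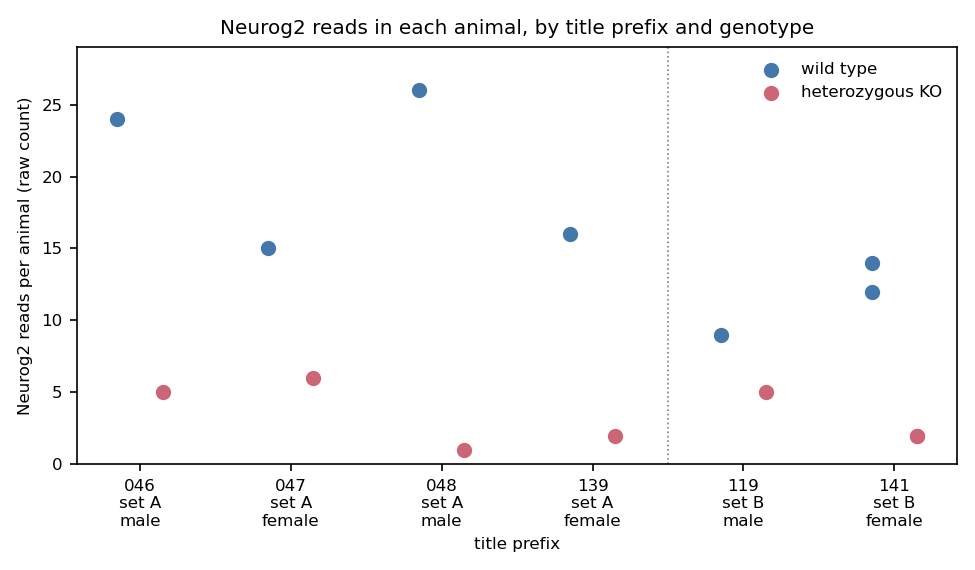
Raw Neurog2 reads in each animal (y axis) by title prefix (x axis), with wild type in blue and heterozygous KO in red; set B lies right of the dotted line, and the 2 heterozygotes of prefix 141 share 1 point at 2 reads. Wild-type animals held 9 to 26 reads and heterozygotes 1 to 6.

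The fitted log2 difference of Neurog2 was -2.23 (SE 0.359), or 4.71-fold lower in heterozygotes. The adjusted p was 0.00519 in edgeR's quasi-likelihood fit with sex and set as covariates. Neurog2 failed that fit's default filter on low counts (minimum count 10), so this value comes from a fit with a minimum count of 5, chosen after the data were seen. It passed that filter only through the wild-type group, where it is high. In that fit 16 of 14634 genes were called, or 0.109%, and Neurog2 was the only 1 of the 9 members among them. Because this contrast chose the gene, nothing is read from that count. The authors' deposited table gives Neurog2 an adjusted p of 0.000342, the 4th smallest p of the table, and calls 0.191% of its genes. Its log2 fold change there, -0.26, is on a scale shrunken towards 0 and understates a low-count gene.

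Neurog2 was lower in heterozygotes in 6 of 6 prefixes, a direction shared by 2.04% of the genes in that fit. The difference in log2 CPM ran from -0.51 in prefix 119 and -0.70 in prefix 047 to -3.47 in prefix 048. These values carry a prior count of 2, which draws differences between such low counts towards 0. In prefix 048 the CPM themselves were 2.52 in the wild type and 0.0758 in the heterozygote. The spread between prefixes was thus wide. Within set A the fitted log2 difference was -2.32 (SE 0.459) and within set B -2.09 (SE 0.596). By sex it was -2.36 (SE 0.529) in males and -2.11 (SE 0.506) in females. The test of the difference between sets gave 0.24 (SE 0.888, edgeR adjusted p = 0.928), which leaves room for a large difference either way. With a set A fit of its 8 animals alone the call was lost (edgeR adjusted p = 0.209), while the 6 animals of set B alone gave 0.00693 for the same edgeR adjusted p. With the default filter, set B alone called far more genes by genotype than set A alone (counts in the last section). A low adjusted p was thus common in set B alone.

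**Figure D2:**
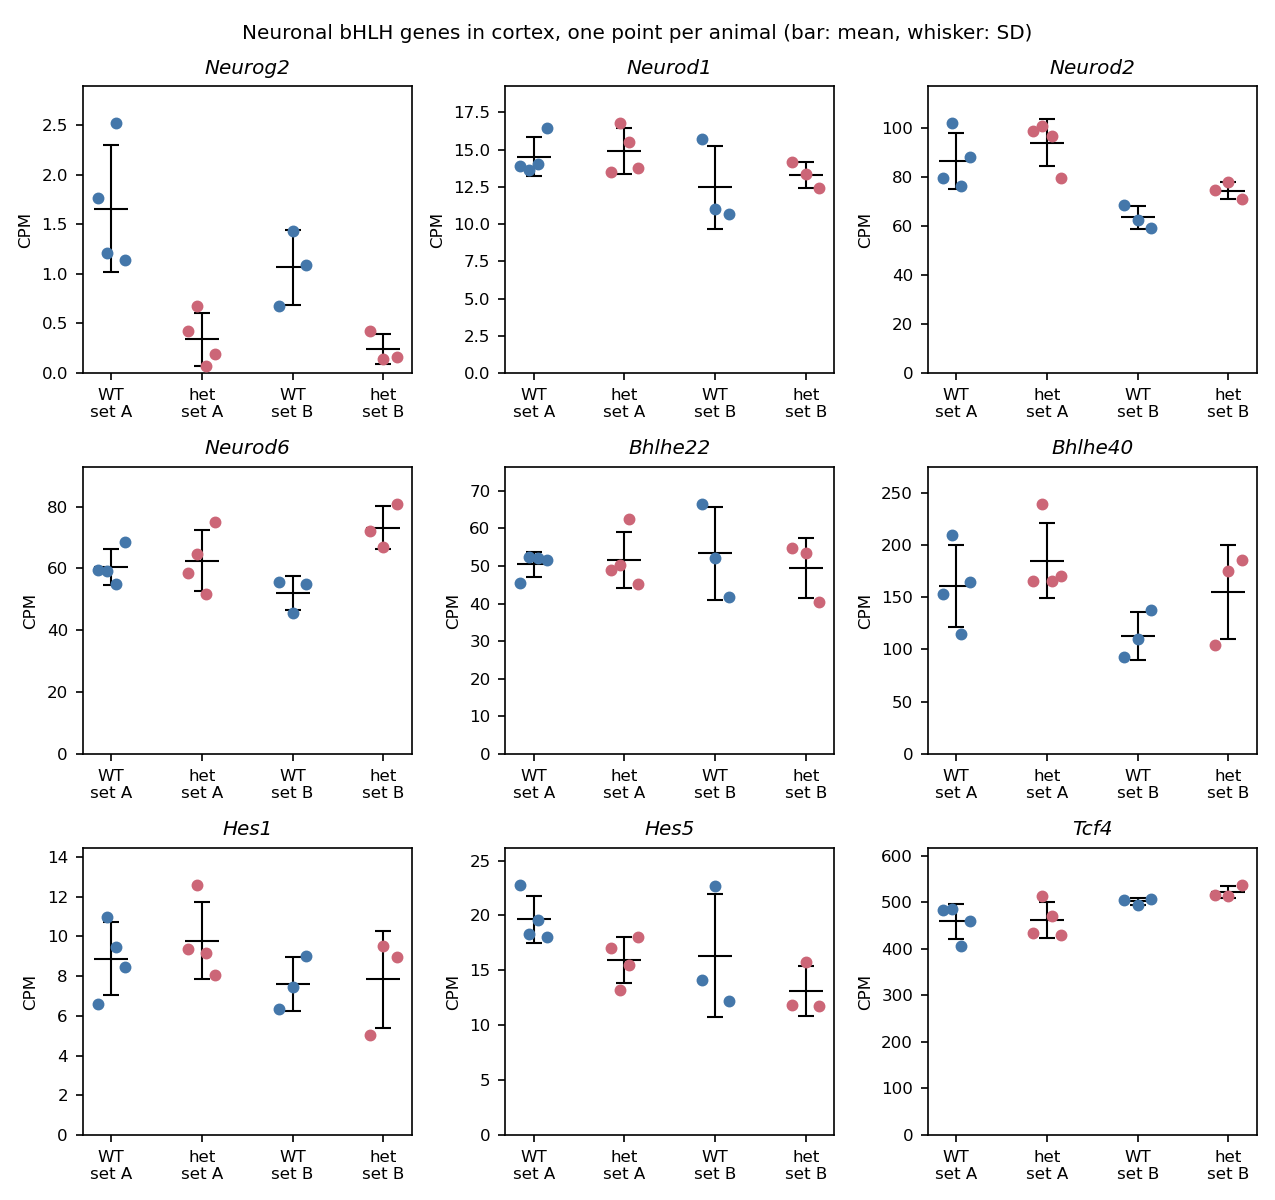
CPM of each member (y axis, starting at 0, own scale per panel) in every animal, grouped by genotype and set; horizontal bars are means and whiskers SD. Neurog2 is low in both heterozygous groups, Neurod6 separates by genotype in set B and not in set A, and Neurod2 and Bhlhe40 lie lower in set B.

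Its neighbours on chromosome 3 were examined after their values had been seen. Of the 3 protein-coding genes on each side, Ank2, Larp7 and 4930422G04Rik (Zgrf1) had log2 differences of -0.05, 0.13 and 0.00. Alpk1, Tifa and Ap1ar, on the other side, had -0.30, -0.21 and -0.06. None of the 6 was called, with edgeR adjusted p between 0.566 and 0.998. Ank2, at 1228 ± 92.0 CPM in wild type, was by far the most abundant of these genes.

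**Figure D3:**
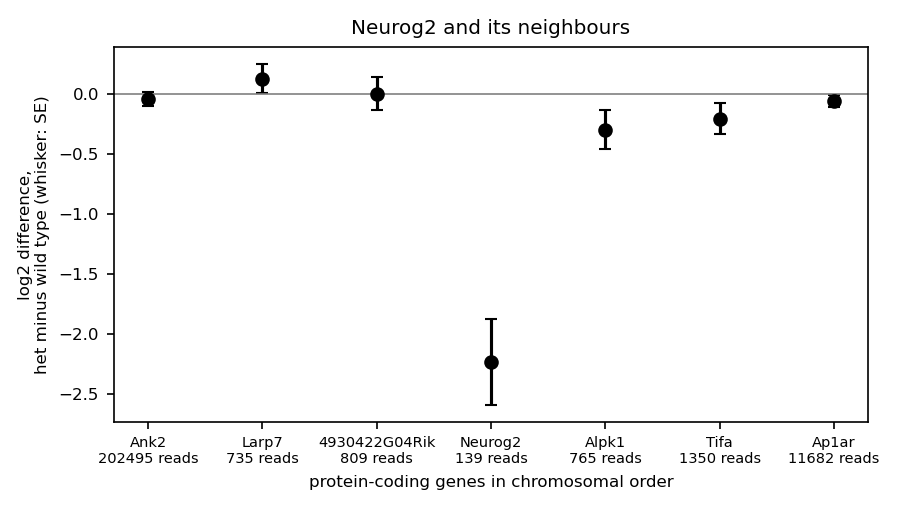
Log2 difference, heterozygous minus wild type (y axis, whiskers SE), of Neurog2 and the 3 protein-coding genes on each side in chromosomal order, with the summed reads of 14 animals under each name. Neurog2 sits at -2.23 while its neighbours lie between -0.30 and 0.13.

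The Neurod genes, which act after the neurogenins and persist in mature excitatory neurons, were not lower in heterozygotes. Neurod2, a differentiation factor of cortical projection neurons, ranged from 59.3 through a median of 76.5 to 102 CPM in wild type. In heterozygotes it ranged from 70.9 through 79.7 to 100.9 CPM, so the genotypes overlapped. Its log2 difference was 0.16 (SE 0.0658, edgeR adjusted p = 0.423). Neurod6, a marker of the same neurons, ranged from 45.6 through 55.5 to 68.5 CPM in wild type and from 51.8 through 66.8 to 80.7 CPM in heterozygotes. Its log2 difference was 0.23 (SE 0.0891, edgeR adjusted p = 0.421).

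Neurod6 differed between the sets in how far the genotypes stood apart. In set B the wild-type animals held 55.5, 45.6 and 54.8 CPM and the heterozygotes 72.0, 66.8 and 80.7 CPM, with no overlap. In set A the wild-type animals held 68.5, 59.4, 59.1 and 54.9 CPM and the heterozygotes 51.8, 58.5, 75.1 and 64.8 CPM, fully interleaved. The fitted log2 differences were 0.49 (SE 0.105) in set B and 0.04 (SE 0.0910) in set A. Marker lists also had other genotype medians in set B than in set A, with -0.36 and -0.03 for astrocytes, -0.26 and 0.01 for microglia, -0.39 and -0.12 for meninges and choroid plexus, and 0.23 and 0.05 for the oligodendrocyte lineage. The excitatory neuron list had 0.11 and 0.03, and the part of these markers in the Neurod6 value was not tested. The test of this difference gave 0.44 (SE 0.140) with an unadjusted p of 0.00439 and an edgeR adjusted p of 0.154, so it did not pass. It passed at 0.56 without wild-type replicate 5, the only male of the 3 wild-type animals of set B (edgeR adjusted p = 0.0192). Many other genes were also called without that animal (count in the last section), so the pass was not particular to Neurod6. Over the alternatives the edgeR adjusted p ran from 0.0106, with no filter and 381 genes called, to 0.486. With every animal and the default filter, edgeR called 0% of genes in this test (0 of 13815, with 2036 below 0.05 before adjustment). DESeq2 called 235 genes there and gave Neurod6 an adjusted p of 0.0587. Neurod2 and Tcf4 were also higher without overlap in heterozygotes of set B, which makes 3 of the 9 members, beside 10.8% of all tested genes.

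Neurod1, a neurogenic and endocrine factor, stood at 13.6 ± 2.16 CPM in wild type and 14.2 ± 1.47 CPM in heterozygotes (SD, n = 7 each). The log2 difference of 0.05 (SE 0.0886) was within its error. This value is uncertain, because in the GENCODE annotation the exons of Neurod1 overlap those of Cerkl on the same strand. Cerkl held between 1.05 and 1.20 times the CPM of Neurod1 in every animal. Bhlhe22, a repressor that helps set the identity of projection neurons, was at 51.8 ± 7.66 CPM in wild type and 50.8 ± 7.09 CPM in heterozygotes, a log2 difference of -0.03 (SE 0.0855). Tcf4, the E protein partner, was at 477 ± 35.1 and 487 ± 42.9 CPM (SD, n = 7 each), a log2 difference of 0.03 (SE 0.0538). Tcf4 had the smallest spread between replicates of any member, 0.0872 on the log2 scale.

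Bhlhe40 leaned higher in heterozygotes. It ranged from 92.4 through a median of 138 to 209.9 CPM in wild type and from 104 through 171 to 239 CPM in heterozygotes. The ranges overlapped, yet the heterozygous mean was above the wild-type mean in 6 of 6 prefixes, which holds for 2.38% of tested genes. The log2 difference was 0.31 (SE 0.0965, edgeR adjusted p = 0.325), and with the prefix as a block it was 0.30 (SE 0.0687, edgeR adjusted p = 0.0669). An antisense gene, 0610040F04Rik, overlaps its exons, but at 1.67 CPM it holds few reads. Immediate early genes, which share the response to activity with Bhlhe40, summed to between 1225 and 2424 CPM per wild-type animal and between 1398 and 2775 CPM per heterozygote. Their part in the Bhlhe40 value was not tested.

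**Figure D4:**
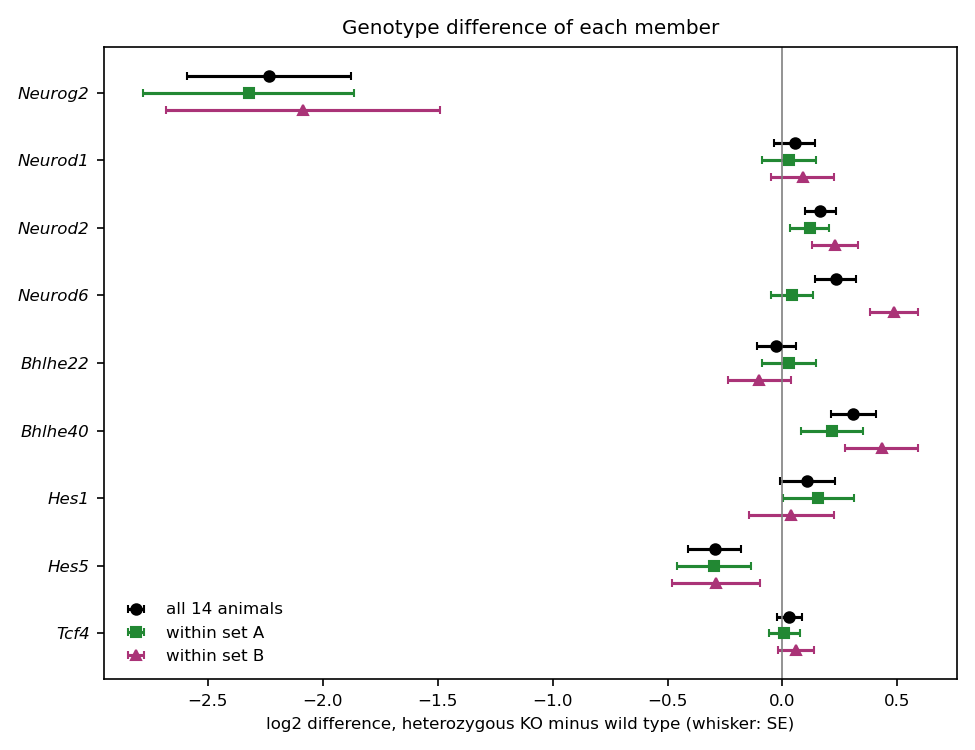
Log2 difference of each member between heterozygous and wild-type animals (x axis, whiskers SE) over all 14 animals and within each set, from edgeR fits with a minimum count of 5. Neurog2 lies between -2.32 and -2.09, and Neurod6 is near 0 in set A and 0.49 in set B.

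The Notch effectors showed small differences of opposite sign. Hes5 ranged from 12.2 through a median of 18.3 to 22.7 CPM in wild type and from 11.8 through 15.5 to 18.0 CPM in heterozygotes. Heterozygous replicates 5 and 7 lay below every wild-type animal, and the other heterozygotes lay inside the wild-type range. The mean was below wild type in 5 of 6 prefixes by 0.25 to 0.46 log2 units, and in prefix 139 the genotypes were equal to 3 digits, at 18.0 CPM. In set A the genotypes did not overlap by a margin under 0.01 CPM, where 1.37% of tested genes were lower without overlap. Scaled to library totals they overlapped, with the lowest wild-type animal at 17.8 CPM and the highest heterozygote at 18.0 CPM. The log2 difference was -0.30 (SE 0.117, edgeR adjusted p = 0.423), and the sets gave -0.30 (A) and -0.29 (B). It was -0.19 without wild-type replicate 6, and it reached -0.36 without wild-type replicate 7. Astrocytes are known to express Hes5, and all 14 astrocyte markers had a negative log2 difference, none of them called (median -0.17). That median came to -0.03 within set A and -0.36 within set B. The part of astrocyte markers in the Hes5 value was not tested. Hes5 also overlaps an antisense annotation, Gm20421, and no source used here states how strand was handled in the counting.

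Hes1, the more broadly expressed Notch target, stood at 8.34 ± 1.65 CPM in wild type and 8.96 ± 2.22 CPM in heterozygotes (SD, n = 7 each). Its log2 difference was 0.11 (SE 0.119, edgeR adjusted p = 0.788). The heterozygous mean was above wild type in 3 of 6 prefixes.

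Between the sets of prefixes, whose definition rests on all genes of these libraries including the members, the fit called 4 of the 9 members. That share is close to the 38.8% called over all tested genes (19.1% higher and 19.6% lower in set B), and 3 of the 4 were lower. Neurod2 was lower in set B, with a log2 difference of -0.39 (SE 0.0677, edgeR adjusted p = 8.62e-05). In set A it lay between 76.5 and 102 CPM, and in set B between 59.3 and 78.0 CPM, so only the edges of the ranges met. Bhlhe40 was lower in set B by a similar amount, at -0.47 (SE 0.100, edgeR adjusted p = 0.00164). Hes1 was lower at -0.33 (SE 0.123, edgeR adjusted p = 0.0359) and Tcf4 higher at 0.15 (SE 0.0549, edgeR adjusted p = 0.0382). The Hes1 call was lost in 8 of 18 alternative fits, when wild-type replicate 3, 4, 5 or 6 or heterozygous replicate 1, 2, 4 or 5 was left out (adjusted p up to 0.157). The Tcf4 call was lost in 10 of 18, with no filter and when wild-type replicate 1, 4, 5 or 7 or heterozygous replicate 2, 3, 5, 6 or 7 was left out (adjusted p up to 0.0972).

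Hes5 at -0.28 (edgeR adjusted p = 0.0736, but 0.00285, 0.0446 and 0.0375 without wild-type replicate 6, heterozygous replicate 4 and heterozygous replicate 6), Neurod1 at -0.17 (edgeR adjusted p = 0.137, 0.0295 without wild-type replicate 5) and Neurog2 at -0.54 (SE 0.348, edgeR adjusted p = 0.237) did not pass. Leaving out 1 animal moved the Neurog2 value from -0.73, with replicate 6 of the wild type out, to -0.11, with replicate 5 out. Neurod6 at -0.00 and Bhlhe22 at 0.04 were near 0. Cell type markers moved with the sets too. Of 14 astrocyte markers 13 were called higher in set B, and their summed level spanned 10206 to 11701 CPM in set A against 13506 to 19382 CPM in set B. Of 20 immediate early genes 14 were called lower in set B, with a median log2 difference of -0.73 for the list. No gene of either list was at 0 in all animals, and the part of these markers in the members' set differences was not tested.

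**Figure D5:**
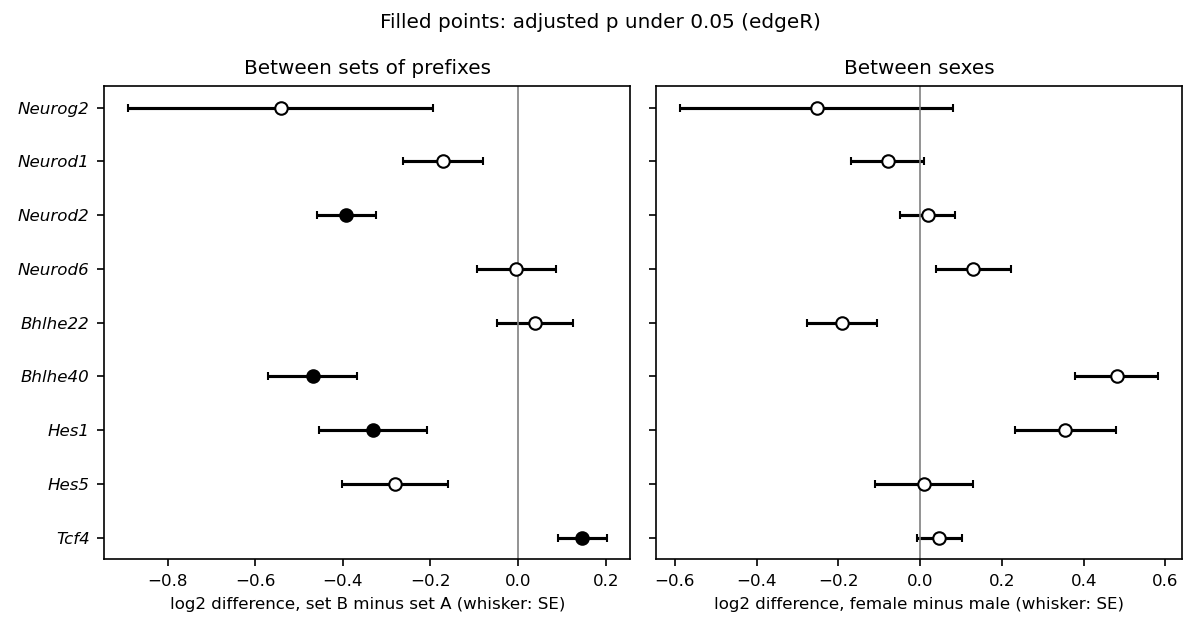
Log2 difference of each member between sets (left, B minus A) and between sexes (right, female minus male), with whiskers of SE and filled points for an edgeR adjusted p under 0.05. Neurod2, Bhlhe40, Hes1 and Tcf4 are filled on the left, and no point is filled on the right.

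All animals of a prefix were of the same sex, male in 046, 048 and 119 and female in 047, 139 and 141. A sex difference can therefore not be told apart from a difference between these prefixes. Between sexes, edgeR called 0 of the 9 members, and 0.123% of all tested genes. Before adjustment, 3 members had a p under 0.05. Bhlhe40 had the largest difference, with females above males by 0.48 log2 units (SE 0.100, edgeR adjusted p = 0.102). DESeq2 gave it an adjusted p of 0.000548, and edgeR gave 0.00143 to 0.389 when 1 animal was left out, passing without wild-type replicate 2, wild-type replicate 6 or heterozygous replicate 3. The call thus depends on the tool and on single animals. In set A, females held 196 ± 34.9 CPM and males 149.7 ± 23.9 CPM (SD, n = 4 each). In set B, females held 152 ± 35.0 CPM (n = 4) and the 2 males 92.4 and 104 CPM. Hes1 was 0.36 higher in females (SE 0.123, edgeR adjusted p = 0.306) and Bhlhe22 0.19 lower, as a log2 difference of -0.19 (SE 0.0867, edgeR adjusted p = 0.484). In the test of whether the genotype difference differed by sex, edgeR called 0 of 13815 genes, with 316 below 0.05 before adjustment. DESeq2 called 1 gene in it.

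Other members of the bHLH family, from lists drawn up with earlier results known, showed no gene called by genotype in edgeR's fit. The other neuronal class A activators were mostly silent in adult cortex: of 23 listed, 7 passed the filter, 3 with a positive and 4 with a negative log2 difference and a median of -0.00. Among the most abundant were the oligodendrocyte factors Olig1 (117 ± 7.03 CPM in wild type) and Olig2 (27.0 ± 1.72 CPM in wild type, SD, n = 7 each). Neurod4 and Nhlh1, neurogenic factors as scarce as Neurog2, did not pass the filter. Neurod4 had 23 reads in wild type and 45 in heterozygotes, and Nhlh1 41 and 48, with overlapping ranges of 1 to 5 against 1 to 10 and of 2 to 12 against 3 to 13 reads per animal.

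E proteins and their Id antagonists, which sequester E proteins away from DNA, had 1 positive and 5 negative log2 differences among 6 (median -0.06). Id4 was at 66.8 ± 18.2 CPM in wild type and 57.0 ± 10.2 CPM in heterozygotes, Id2 at 81.3 ± 12.1 and 78.8 ± 8.95 CPM, and Tcf12 at 45.8 ± 4.90 and 46.4 ± 3.35 CPM (SD, n = 7 each). Id2 and Id4 were called higher in set B, at 0.34 and 0.45 log2 units (edgeR adjusted p = 7.66e-06 and 0.00125). The other Hes, Hey and Bhlhe repressors gave 5 tested genes of 9, all with a negative log2 difference (median -0.11). Among them Hey1, a Notch target, was at 60.5 ± 4.53 and 57.3 ± 4.26 CPM, Bhlhe41 at 27.9 ± 4.46 and 25.9 ± 3.10 CPM, and Hes6 at 10.1 ± 1.23 and 9.24 ± 1.24 CPM (SD, n = 7 each). Over all tested genes 7072 were positive and 6743 negative, with a median of 0.00. The wider bHLH-PAS, Myc and MiT families split evenly, 15 and 15 of 30 tested, and the most abundant were Arnt2, Srebf2 and Epas1.

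Genes of the Notch pathway, which lies upstream of Hes1 and Hes5, split 14 positive to 13 negative among 27 tested of 28 (median 0.01), and none was called by genotype. The receptor Notch1 had a log2 difference of -0.08, the ligand Dll1 -0.19 and the DNA-binding effector Rbpj 0.10, with edgeR adjusted p of 0.69, 0.579 and 0.651. The most abundant were the Deltex-family gene Dtx3, the protease Adam10, which cleaves the receptor, and Numbl, an inhibitor. Between sets 3 of the 27 were called higher in set B and 10 lower, among them Jag2 at -0.37 and Numbl at -0.38. Over all tested genes 19.1% were called higher in set B and 19.6% lower. Genes of the neurogenic programme that act with or downstream of Neurog2 in the embryo split 6 to 5 among 11 tested of 15 (median 0.01). Tubb3, a neuronal tubulin, was at 264 ± 58.9 CPM in wild type and 284 ± 46.8 CPM in heterozygotes, and Tbr1, a factor of deep-layer neurons, at 207 ± 23.2 and 224 ± 18.8 CPM (SD, n = 7 each). Eomes, which marks intermediate progenitors, held 26 reads over all 14 animals and did not pass the filter.

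Markers of cell types that a cortical dissection could hold were listed beside the members, and edgeR's fit called none by genotype. Excitatory neuron markers gave 11 positive and 4 negative log2 differences (median 0.08), interneuron markers 9 and 3 (0.05) and oligodendrocyte lineage markers 8 and 3 (0.14). Microglia gave 0 and 10 (-0.09), endothelium and mural cells 2 and 10 (-0.13), and meninges and choroid plexus 1 and 8 of 9 tested (-0.21). Hippocampal markers gave 4 and 5 of 9 tested (-0.14), and thalamus and striatum 1 and 9 of 10 tested (-0.06). Striatal and thalamic markers were the most uneven between animals, summing to 225 to 683 CPM. Immediate early genes gave 18 and 2 (0.24). With the prefix as a block, 0.405% of all tested genes were called, and 3 genes of these lists. Agt, at -0.52 (edgeR adjusted p = 0.0234), was 1 of 14 tested astrocyte markers. Egr1 and Ier5, at 0.28 each (edgeR adjusted p = 0.0414 and 0.0272), were 2 of 20 tested immediate early genes. The other marker lists held no such call.

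Across the 14 animals, with the means of sex and set removed and genotype left in, each member was set beside all other tested genes by Pearson r of log2 CPM. Such values describe genes that share libraries and depth, and they carry no p. Neurog2 was most like Tshz1 (r 0.897), H2-Q2 (0.890) and Mrps31 (0.881). Tshz1, a zinc-finger gene, had a genotype log2 difference of -0.14 and was not called (edgeR adjusted p = 0.301). Neurod1 was most like Cerkl (0.961), the gene whose exons overlap it, then Gm5151 and Pias1. Neurod2 was most like Itga3 (0.907) and Chrnb2 (0.903), and Neurod6 like Arhgef2 (0.953), Cap2 and Scrn1. Bhlhe40 was most like Frmd6 (0.957), Dusp6 (0.930) and Tmem132d. Dusp6, a phosphatase induced by ERK signalling, was 1 of the listed immediate early genes. Hes1 was most like Zfp948 (0.892), Wfikkn2 and Zfp189, and Hes5 like Tcfcp2 (0.910), Ccdc40 and 2810410L24Rik. Bhlhe22 was most like Ran (0.903), Pdcd4 and Mtfp1, and Tcf4 like Usp32 (0.959), Pde4d and Zbtb44.

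Between members, the same measure was highest for Neurod2 with Bhlhe40 (0.688) and for Bhlhe40 with Tcf4 (0.655). It was lowest for Neurog2 with Bhlhe40 (-0.591) and for Bhlhe40 with Hes5 (-0.540). Neurog2 and Hes5, the only members with a negative genotype value in every set, had 0.478. Because genotype was left in, these values carry the genotype differences, among them the contrast that chose Neurog2.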

How the data were processed

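Cortex RNA of 14 mice was read as single-end sequence from libraries of a directional kit, per the labels' protocols. The authors deposited 1 table with whole-number counts per gene symbol for each animal; its headers name exons. The deposited table also gives the authors' genotype comparison as a log2 fold change (shrunken), a test statistic (a score with no fixed range), a raw p-value and its adjusted p-value. Trim Galore, Bowtie, STAR, bedtools and the mm9 build are named in the submitters' processing notes, with no roles. The counting tool and its use of strand are not given in the sources used here.

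Counts were fitted with edgeR 4.0.16 (quasi-likelihood, TMM, filterByExpr by genotype, Benjamini-Hochberg at 0.05) in R 4.3.3, with sex, set and genotype as terms, over all 13815 genes that passed, 8 members among them. Neurog2 passed only with a minimum count of 5 in place of 10 (14634 genes), a setting added after the data were seen. Values within a set or sex come from 1 fit of all animals with that minimum, unless a set alone is named. CPM uses the TMM-scaled library sizes of the tested genes, with a prior count of 2 on the log scale in correlations and in differences by prefix. RPKM uses GENCODE M21 exon lengths on GRCm38, a newer build than that of the counts. The code was tested on simulated data. DESeq2 1.42.0, another scaling, no filter, sex as the only covariate, each set alone, the prefix as a block and leaving out each animal were the alternatives.

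Members, sets and lists were chosen with earlier results of these data known. The genes named are the 9 members, the most abundant or called genes of each list, and the 3 genes most like each member, apart from a few that are not reported here; a few others, named to show roles, were chosen after their values were seen. Replicate numbers follow the order of the series. Of the pairs of animals sharing a prefix, 9 were compared, which is not all of them. These pairs correlated at 0.2 to 0.517 after genotype means were removed, but at -0.328 to -0.00545 once sex and set were removed too. Removing means taken over few animals pulls such correlations below 0, so they cannot show what a prefix shares beyond these terms. With the prefix as a block, genotype calls went from 15 to 56. The SE of the genotype difference went from 0.0965 to 0.0687 for Bhlhe40 and from 0.359 to 0.361 for Neurog2.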

Additional observations from a re-analysis of the deposited data

Results flagged for a closer look

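Each member was examined in the 7 animals of each genotype and in the 4 of each genotype in set A, which makes 36 groups. Chance sets an animal apart in about 1 group in 20. In 3 groups, all of 4 animals in set A, a single animal stood far from the rest; animals of set B are not part of these comparisons. Among the 4 wild-type animals of set A, Neurod1 was highest in wild-type replicate 1 (prefix 139) at 16.45 CPM, with the next animal at 14.04 CPM. Among the same animals, Bhlhe22 was lowest in wild-type replicate 2 (prefix 046) at 45.6 CPM, with the next at 51.7 CPM. Among the 4 heterozygotes of set A, Bhlhe40 was highest in heterozygous replicate 4 (prefix 047) at 239 CPM, with the next at 171 CPM.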

How the results depend on the processing

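Neurog2 kept its direction in all 22 alternatives, with log2 differences from -2.52 to -1.96 when 1 animal was left out (edgeR adjusted p 0.00187 to 0.0316). Its largest edgeR adjusted p was 0.209, in set A alone. Because the genotype contrast chose Neurog2, these values describe it and are not independent evidence. For genotype, edgeR called 15 genes; the count was 27 with DESeq2, 242 with no filter, 2 with sex as the only covariate, 0 in set A alone (609 at an unadjusted p under 0.05), 2304 in set B alone, and 5 to 18 without 1 animal (under 10 without wild-type replicate 2, 5, 6 or 7 or heterozygous replicate 6 or 7). With the title prefix as a replicate block it was 56, and Neurog2 was at -2.25 (edgeR adjusted p = 0.00485). With no filter the edgeR adjusted p of Neurod6, Bhlhe40 and Hes5 was 0.0153, 9.76e-05 and 0.0387, against 0.421, 0.325 and 0.423. Neurod6 was 0.04 in set A alone and 0.49 in set B alone. For sex, 17 genes became 44 with DESeq2, 261 with no filter and 2 to 53 without 1 animal (2 without wild-type or heterozygous replicate 5, 53 without wild-type replicate 1). Bhlhe40 was called for sex in 5 of 18 alternatives. For genotype by set, 0 became 235, 381 and 0 to 850 (850 without wild-type replicate 5, 563 without replicate 4), and for genotype by sex 1, 5 and 0. The set count stayed between 4654 and 5483 when 1 animal was left out. Genotype values of members were scored by size, as the same if within 1 SD between replicates of the main value, and for Neurog2 also by sign. Calls lost or gained among them are not counted below, nor is the sign change of Bhlhe22 (-0.090 to 0.038). The other values were scored by direction and by side of the 0.05 limit. Of 684 member values under alternatives, 623 were the same, 18 lost a call, 12 gained 1, 2 moved (Neurod6 above) and 29 changed sign, each with 1 animal left out. The ranges of the latter were, for set, Neurod6 -0.059 to 0.063 and Bhlhe22 -0.049 to 0.089; for sex, Neurod1 -0.13 to 0.011, Neurod2 -0.037 to 0.068 and Hes5 -0.064 to 0.064; for genotype by set, Neurog2 -0.32 to 0.79, Neurod1 -0.040 to 0.28, Bhlhe22 -0.26 to 0.014, Hes1 -0.28 to 0.053 and Hes5 -0.17 to 0.32. The causes were not tested. Neurog2 rests on 139 reads, so its size is imprecise.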
